A study of Homo sapiens with 4 samples.

Results

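Laminins, nidogens and the laminin-binding integrin alpha subunits were examined as 10 genes, taken by their symbols from a table of 58365 genes: LAMA1, LAMA3, LAMA5, LAMB1, LAMB2, LAMC1, NID1, NID2, ITGA3 and ITGA6. Each symbol occurred once, and 9 of the 10 genes passed a minimum mean of 1 FPKM (fragments per kilobase of transcript, scaled to the mapped fragments of the library) over the samples, LAMA3 being the exception. RNA was sequenced from 4 samples of H1, a human embryonic stem cell line, at day 2 of hematopoietic differentiation: 2 samples had received DMSO, the solvent, and 2 had received IWP2. All 4 were grown in Custom mTeSR1 medium with activin A and BMP4, the inducers of mesoderm, on growth factor reduced Matrigel, which is itself a basement membrane extract. IWP2 inhibits Porcupine, the enzyme that lipidates Wnt ligands so that they can be secreted, and the comparison asked how gene expression depended on Wnt signaling. The samples came from a single line, and independent experiments were described only for the study in general, not for these libraries, so p-values measure the spread between these samples, which may be technical.

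Laminins are heterotrimers of an alpha, a beta and a gamma chain that polymerize into the sheet on which epithelial cells rest. Nidogens bridge the laminin sheet to type IV collagen, and cells attach to laminin mainly through integrins whose alpha subunit pairs with ITGB1, and through dystroglycan. Pluripotent stem cells are cultured on laminin, and loss of contact with the basement membrane accompanies ingression of cells through the primitive streak.

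Genes were called higher or lower in IWP2 at an adjusted p below 0.05, by limma on log2(FPKM + 1) with Benjamini-Hochberg adjustment over all 14022 genes tested. Of 10 Wnt target genes, 8 were called lower, and RNF43 and ZNRF3 were not called. SP5, a direct target with the largest fold difference of these, was at 53.2 and 47.0 FPKM in DMSO and 0.379 and 0.363 in IWP2. AXIN2 was at 14.2 and 15.2 FPKM in DMSO and 6.45 and 5.58 in IWP2. T, 1 of the 8, is also in the nascent mesoderm list. Markers of cell types differed as well. All 7 tested nascent mesoderm markers were called lower, and their summed level was 1108 to 1410 FPKM in DMSO and 150 to 172 in IWP2. Of 8 pluripotency markers, 5 were called higher and 1 lower, with sums of 1191 to 1371 and 2497 to 2502 FPKM. SOX2 was at 0.193 and 0.174 FPKM in DMSO and at 35.6 and 36.1 in IWP2. The largest term of these sums was POU5F1, at 751 and 571 FPKM in DMSO and 1854 and 1844 in IWP2. TDGF1, the gene called lower, was at 203 and 221 FPKM in DMSO and 103 and 98.6 in IWP2. NANOG and LIN28A were not called (limma adjusted p = 0.165 and 0.745). Definitive endoderm markers summed to 1918 to 2307 FPKM in DMSO and 126 to 137 in IWP2, with 5 of 6 tested genes lower. Most of the DMSO sum was CER1, at 1612 and 2048 FPKM in DMSO and 38.6 and 34.2 in IWP2. The tested gene not called was SOX17, at 155 and 104 FPKM in DMSO and 79.7 and 94.9 in IWP2 (limma adjusted p = 0.152). Of the amnion or trophoblast markers, 3 of 8 tested were higher and 2 lower, with sums of 337 to 408 and 237 to 262 FPKM. HAND1, which the nascent mesoderm list also holds, was at 234 and 322 FPKM in DMSO and 101 and 119 in IWP2, and without it the sums were 86.1 to 103 FPKM in DMSO and 137 to 143 in IWP2. CDX2, the other gene called lower, was at 5.49 and 5.21 FPKM in DMSO and 0.233 and 0.145 in IWP2. The 3 called higher were TFAP2A, GABRP and KRT7. TFAP2C, at 33.9 and 16.8 FPKM in DMSO and 53.7 and 53.8 in IWP2, was not called (limma adjusted p = 0.0722). Of the extraembryonic endoderm markers, whose cells make much laminin, TTR reached 0.188 FPKM in any of the 4 samples, HNF4A 0.572, AFP 1.84 and APOA1 4.54. COL4A1 and SPARC, which that list shares with the basement membrane genes, were its 2 genes called lower of 3 tested, and its sums were 1067 to 1092 and 710 to 751 FPKM. Endothelial markers summed to 57.6 to 65.5 FPKM in DMSO and 38.6 to 40.5 in IWP2, with 2 of 2 tested genes (KDR and TEK) lower, CDH5 reaching 0.492 FPKM and PECAM1 0.447. Most of each sum was KDR, at 53.2 and 60.4 FPKM in DMSO and 38.6 and 35.7 in IWP2. Neuroectoderm markers were carried by OTX2, the 1 gene tested and called lower, with sums of 57.7 to 62.1 and 3.38 to 3.39 FPKM. No other gene of that list exceeded 1.33 FPKM, the value of PAX6 in DMSO 1. Fibroblast markers were 1 higher and 1 lower of 5 tested, with sums of 184 to 196 and 193 to 194 FPKM. The gene called higher was THY1, at 89.1 and 83.0 FPKM in DMSO and 114 and 119 in IWP2. LUM, at 3.10 and 2.80 against 0.108 and 0.178 FPKM, was called lower. COL1A1 and COL1A2 were lower and PDGFRB higher in both IWP2 samples, without being called. DCN did not exceed 0.00705 FPKM. In such bulk samples, fewer cells of a type and less RNA per cell cannot be told apart, and the part of these shifts in the values below was not tested.

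Of the 9 tested genes, 2 were called higher in IWP2 (LAMA5 and ITGA3) and 2 lower (LAMA1 and LAMB1). Over all 14022 genes tested, 6.75% were called higher and 8.44% lower. The 2 groups did not overlap for any of the 9 genes: 5 were higher and 4 lower in both IWP2 samples than in both DMSO samples, against 27.9% and 31.9% of all genes tested. NID2, 1 of the 4 lower genes, passed the minimum of 1 FPKM only through the DMSO samples. Its mean was 1.06 FPKM over the 4 samples, 1.29 in DMSO and 0.834 in IWP2. The median log2 difference over the 9 genes was 0.32, beside -0.02 over all genes tested. The calls rest on few samples. Without IWP2 replicate 1, none of the 4 calls was kept by limma, and without IWP2 replicate 2 only LAMA5 was still called.

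**Figure D1:**
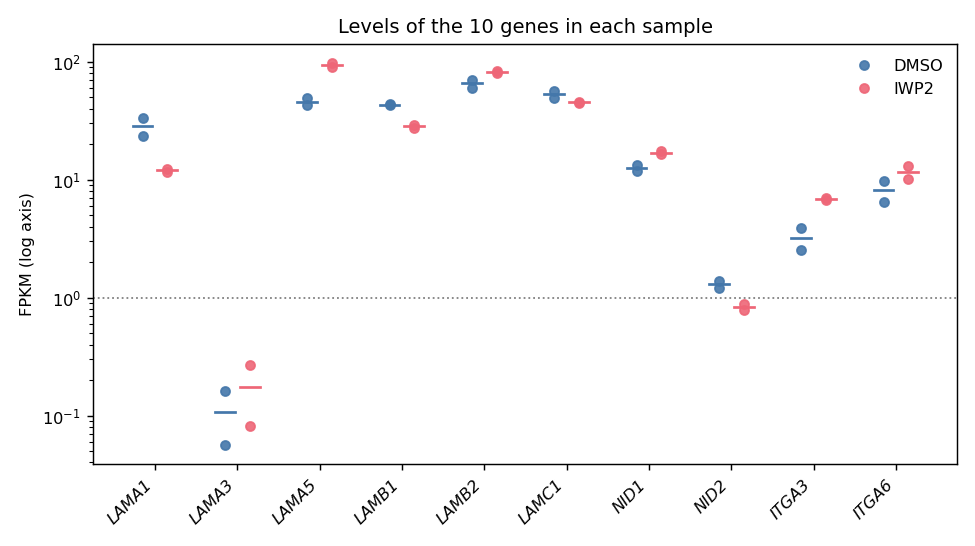
FPKM of the 10 genes (log axis) in 2 DMSO and 2 IWP2 samples. Points are samples, short lines are group means and the dotted line marks 1 FPKM. LAMA5 sits above 90 FPKM in IWP2 and below 49 in DMSO, whereas LAMA1 sits below 13 in IWP2 and above 23 in DMSO.

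The sequences just before the start sites of LAMA5 and LAMB1 are shown because these laminin genes were called in opposite directions, LAMA5 higher and LAMB1 lower. They are from RefSeq (GRCh38.p14), 5′ to 3′ on the strand of the gene, which is the minus strand for both. LAMA5 is given at chr20:62367313-62367562 and LAMB1 at chr7:108003256-108003411, in both cases outside the gene as the table bounds it. Capitals mark GGGCGG (the GC box of SP factors) and CAGGTG (an E-box bound by SNAI1), each on either strand. CTTTGA, the core bound by TCF/LEF factors, was also searched.
LAMA5: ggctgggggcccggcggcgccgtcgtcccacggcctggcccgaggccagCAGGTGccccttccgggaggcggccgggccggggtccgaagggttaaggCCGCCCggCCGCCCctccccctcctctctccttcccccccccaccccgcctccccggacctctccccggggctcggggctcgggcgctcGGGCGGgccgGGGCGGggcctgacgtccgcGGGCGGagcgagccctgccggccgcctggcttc
LAMB1: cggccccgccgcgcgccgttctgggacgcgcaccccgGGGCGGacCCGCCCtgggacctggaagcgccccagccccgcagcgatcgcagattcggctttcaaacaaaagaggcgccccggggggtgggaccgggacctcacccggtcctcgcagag

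In the 250 bases before the RefSeq start, LAMA5 held 5 GC boxes and 1 E-box and LAMB1 held 4 GC boxes. For LAMB1, 2 of the 4 lie in the 156 bases shown. The rest of its 250 bases lies inside the gene as the table bounds it. No marked motif overlaps another in the sequences shown, and neither promoter held CTTTGA. Of 35116 promoters of the same length, 42.6% held a GC box, 17.5% the E-box and 11.2% CTTTGA. Promoters of 8 of the 10 genes were matched by symbol, LAMA1 and ITGA3 being the others, and CTTTGA was in none of their 9 promoter windows. The windows were 50.8% to 82.8% G or C, with LAMA5 at 82.8% and LAMB1 at 70.4%, and the motif shares above were not matched for this. The LAMA3 window, at 23872770 to 23873019, lay wholly within the bounds of that gene. A match is a description of letters and not of binding.

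The alpha chains LAMA1 and LAMA5 were called in opposite directions. LAMA5 (chromosome 20, 62307955 to 62367312, minus strand, GRCh38), the alpha chain of most mature epithelial and vascular laminins, was at 48.7 and 42.8 FPKM in DMSO and at 97.2 and 90.3 FPKM in IWP2. Both IWP2 samples stood above both DMSO samples. Its FPKM was 2.05-fold higher in IWP2, with a log2 difference of 1.02 ± 0.10 (SE; 95% interval 0.77 to 1.28, adjusted p = 0.00425). Without IWP2 replicate 1 the adjusted p was 0.0659, and with any other sample left out LAMA5 was still called. ADRM1, a proteasome gene on the opposite strand that overlaps LAMA5, was at 136 and 127 FPKM in DMSO and at 106 and 116 in IWP2, so that its values went the other way.

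LAMA1 (chromosome 18, 6941744 to 7117814, minus strand), the alpha chain of the earliest embryonic basement membranes, was at 33.3 and 23.5 FPKM in DMSO and at 11.6 and 12.4 FPKM in IWP2. The DMSO samples lay further from each other than the IWP2 samples, and the groups did not overlap. LAMA1 was 2.37-fold higher in DMSO, and with IWP2 it fell by 1.16 on the log2 scale (SE 0.18, 95% interval -1.61 to -0.71, adjusted p = 0.0143). The call was lost without IWP2 replicate 1 (adjusted p = 0.134) or replicate 2 (0.105). LAMA3 (chromosome 18, 23689443 to 23955066, plus strand), the alpha chain of skin laminin, was listed at 0.0560 and 0.160 FPKM in DMSO and 0.0810 and 0.271 in IWP2, and these overlapping values were too low to test.

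As shares of the summed FPKM of LAMA1 to LAMA5, LAMA1 gave 38.8% and 34.1% in DMSO and 9.96% and 11.2% in IWP2, a difference of -25.9 percentage points. LAMA5 gave 56.8% and 62.1% in DMSO and 83.7% and 81.5% in IWP2, a difference of 23.2 points. The ratio of LAMA5 to LAMA1 was 1.46 and 1.82 in DMSO and 8.40 and 7.29 in IWP2. Neither share overlapped between the groups, and the exact permutation test gave p = 0.333 for each (two-sided), the smallest that 2 against 2 samples allow. The summed alpha chain level was 85.8 and 68.9 FPKM in DMSO and 116 and 111 FPKM in IWP2, a ratio of 1.47.

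LAMB1 and LAMB2, the beta chains of these trimers, differed in direction. LAMB1 (chromosome 7, 107923799 to 108003255, minus strand) was at 42.7 and 43.5 FPKM in DMSO and at 29.3 and 27.2 FPKM in IWP2, with each pair close together and far from the other. With IWP2 it fell by 0.59 on the log2 scale (SE 0.09, 95% interval -0.81 to -0.37, adjusted p = 0.0128), and it was 1.53-fold higher in DMSO. The direction stayed with any sample left out, but the call did not: the adjusted p was 0.0537 and 0.0509 without DMSO replicate 1 and 2, and 0.0932 and 0.111 without IWP2 replicate 1 and 2. DLD, a mitochondrial dehydrogenase gene on the opposite strand that overlaps LAMB1, was at 79.2 and 84.6 FPKM in DMSO and at 73.7 and 84.0 in IWP2.

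LAMB2 (chromosome 3, 49121114 to 49133118, minus strand), the beta chain of neuromuscular and kidney laminins, was at 70.4 and 60.1 FPKM in DMSO and at 80.1 and 82.5 FPKM in IWP2. Its log2 difference of 0.32 ± 0.10 (SE) did not pass the threshold (adjusted p = 0.110), although both IWP2 samples were higher. LAMB1 held 37.7% and 41.9% of the beta chain FPKM in DMSO and 26.7% and 24.8% in IWP2, a difference of -14.1 points (exact permutation p = 0.333). The summed beta chain level was nearly level, at 113 and 104 FPKM in DMSO and 110 FPKM in both IWP2 samples, and the groups overlapped (exact permutation p = 1).

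LAMC1 (chromosome 1, 183023460 to 183145592, plus strand), the gamma chain that most laminins share, was at 55.9 and 49.5 FPKM in DMSO and at 44.9 and 45.4 FPKM in IWP2. The log2 difference was -0.22 ± 0.09 (SE; 95% interval -0.46 to 0.03), which was not called (adjusted p = 0.205). LAMC1 made up 83.4% ± 1.7 (SD, n = 2) of the summed FPKM of LAMC1 and LAMC3 in DMSO and 84.9% ± 0.85 in IWP2, and the groups overlapped. The 3 genes outside the set whose centred log2 profile over the 4 samples lay closest to that of LAMC1 were UFM1, CD63 and ABCF3, at Euclidean distances of 0.015 to 0.018. A search of 14022 genes over only 4 samples returns some close profiles by its size, and shared regulation was not tested.

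**Figure D2:**
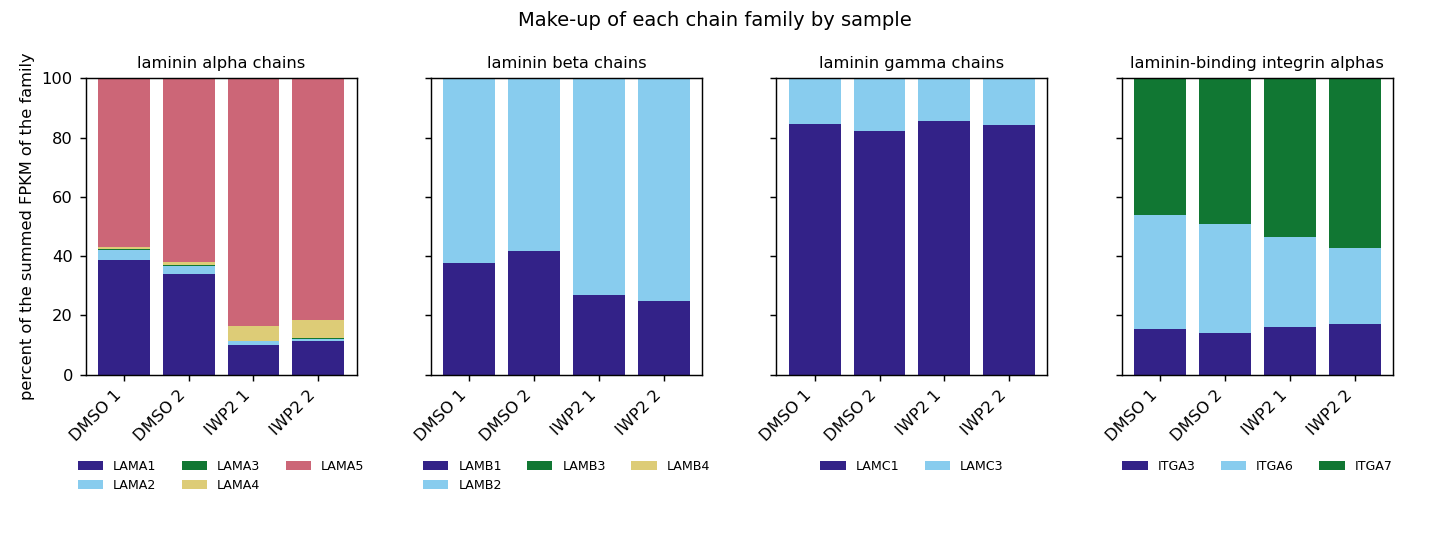
Percent of the summed FPKM of the genes plotted for each family given by each gene, in each of the 4 samples. LAMA5 takes 56.8% and 62.1% of the alpha chain FPKM in DMSO and 83.7% and 81.5% in IWP2, whereas LAMC1 takes 82.1% to 85.5% of the summed FPKM of LAMC1 and LAMC3 in all 4 samples.

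Nidogens are rod-shaped linkers that bind the gamma chain of laminin. NID1 (chromosome 1, 235975830 to 236065162, minus strand) was at 11.8 and 13.2 FPKM in DMSO and at 17.4 and 16.3 FPKM in IWP2. Its log2 difference of 0.41 ± 0.11 (SE, adjusted p = 0.0663) fell short of the threshold, and it was called with quantile normalization (adjusted p = 0.0445) or median centring (0.0433). NID2 (chromosome 14, 52004803 to 52069228, minus strand), whose gene overlaps RTRAF on the opposite strand, was at 1.39 and 1.20 FPKM in DMSO and at 0.788 and 0.881 FPKM in IWP2. The log2 difference was -0.32 ± 0.19 (SE, adjusted p = 0.327). RTRAF was at 104 to 124 FPKM in all 4 samples. NID1 made up 89.5% and 91.7% of nidogen FPKM in DMSO and 95.7% and 94.9% in IWP2.

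ITGA3 and ITGA6 encode alpha subunits that pair with ITGB1 to form laminin receptors. ITGA3 (chromosome 17, 50055968 to 50090481, plus strand) was at 3.92 and 2.51 FPKM in DMSO and at 6.93 and 6.72 FPKM in IWP2. It was 2.12-fold higher in IWP2 with no overlap between the groups, and the log2 difference was 0.91 ± 0.20 (SE; 95% interval 0.42 to 1.41, adjusted p = 0.0368). ITGA3 was still called without DMSO replicate 1, but the adjusted p was 0.0683 without DMSO replicate 2, 0.214 without IWP2 replicate 1 and 0.192 without IWP2 replicate 2.

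ITGA6 (chromosome 2, 172427354 to 172506282, plus strand), a marker used to sort pluripotent cells and a receptor for laminin with several alpha chains, was at 9.76 and 6.50 FPKM in DMSO and at 13.1 and 10.1 FPKM in IWP2. The lower IWP2 sample was just above the higher DMSO sample. The log2 difference was 0.48 ± 0.22 (SE; 95% interval -0.08 to 1.03), which was not called (adjusted p = 0.223). As a share of the FPKM of ITGA3, ITGA6 and ITGA7, ITGA6 gave 38.5% and 36.7% in DMSO and 30.3% and 25.5% in IWP2, a difference of -9.71 points (exact permutation p = 0.333). The summed level of these 3 subunits was 25.3 and 17.7 FPKM in DMSO and 43.3 and 39.4 FPKM in IWP2.

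The order of the 10 levels, which FPKM allows because it is per length, also differed between the groups. In DMSO it ran from LAMB2 through LAMC1, LAMA5, LAMB1, LAMA1, NID1, ITGA6, ITGA3 and NID2 down to LAMA3, and LAMA5 and LAMB1 were the only neighbours whose ranges overlapped. In IWP2 the order was LAMA5, LAMB2, LAMC1, LAMB1, NID1, LAMA1, ITGA6, ITGA3, NID2 and LAMA3, and LAMA1 and ITGA6 were the only neighbours with overlapping ranges. LAMA5 thus stood 3rd in DMSO and 1st in IWP2, and LAMA1 5th and 6th.

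Among 5 other laminin chains, 3 were tested, and limma called 1 higher and 0 lower, beside 6.75% and 8.44% of all genes tested. At an unadjusted p under 0.05, 1 was lower (LAMC3). LAMA4, the alpha chain of vascular and mesenchymal laminins, rose from 0.822 and 0.618 FPKM in DMSO to 5.66 and 6.82 FPKM in IWP2 (log2 difference 2.07 ± 0.17, SE, adjusted p = 0.00283), and the call held with any sample left out. LAMA2 was at 2.90 and 1.84 FPKM against 1.60 and 0.965 and LAMC3 at 10.2 and 10.7 against 7.61 and 8.47, and neither passed (adjusted p = 0.211 and 0.112). LAMB3 did not exceed 0.302 FPKM and LAMB4 was listed at 0 in all 4 samples. The median log2 difference over the 3 tested chains was -0.34.

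Of the 8 other laminin receptors, 7 were tested and limma called 4 higher and 0 lower (median log2 difference 0.45), beside 6.75% and 8.44% of all genes tested. At an unadjusted p under 0.05, 1 was lower (ITGA1). BCAM, a receptor for laminins with the LAMA5 chain, was at 11.1 and 8.36 FPKM in DMSO and 36.1 and 37.2 in IWP2 (log2 difference 1.83 ± 0.15, SE, adjusted p = 0.00253). ITGA7, a laminin integrin best known from muscle, was at 11.6 and 8.69 against 23.2 and 22.6 FPKM (log2 difference 1.11 ± 0.15, adjusted p = 0.0102). DAG1, which encodes dystroglycan, was at 55.8 and 43.1 against 101 and 90.7 FPKM (0.95 ± 0.14, adjusted p = 0.0141). ITGB1, the shared beta subunit, was at 141 and 131 against 195 and 178 FPKM (0.45 ± 0.09, adjusted p = 0.0320). ITGA1 and ITGA2, which bind collagen as well as laminin, were at 3.55 to 4.41 and 1.51 to 2.98 FPKM in DMSO against 2.37 to 2.40 and 1.01 to 1.12 in IWP2, and did not pass (adjusted p = 0.0819 and 0.195). RPSA was not called either (adjusted p = 0.327), and ITGB4 was below the minimum. Without IWP2 replicate 1 no receptor was called, the adjusted p being 0.0537 for BCAM, 0.112 for ITGA7, 0.132 for DAG1 and 0.187 for ITGB1. Without IWP2 replicate 2 BCAM was still called, and ITGB1 was not called with any sample left out (adjusted p from 0.0781 to 0.187).

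**Figure D3:**
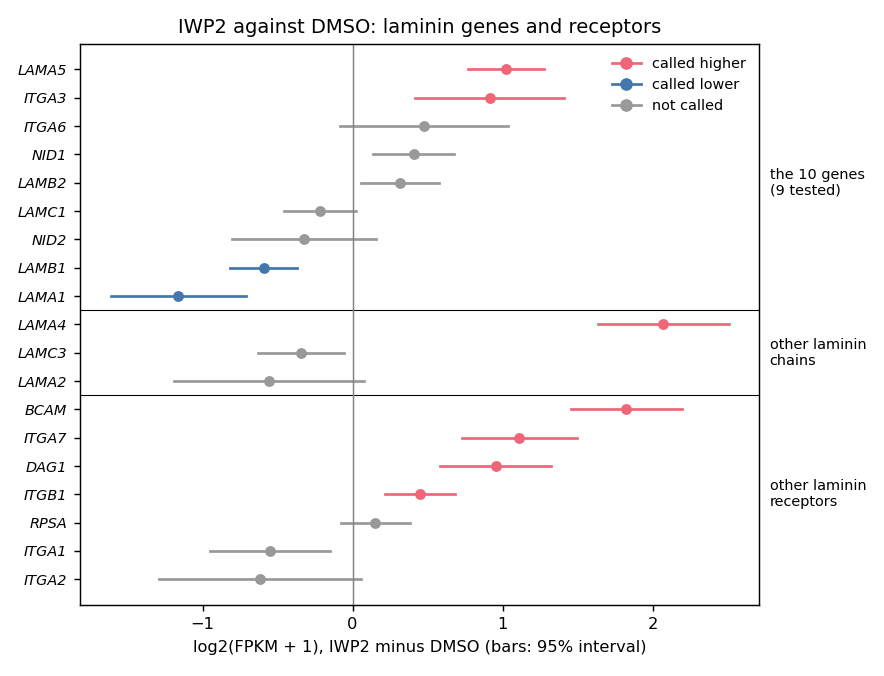
Log2 difference in FPKM + 1, IWP2 minus DMSO, with 95% intervals from limma, for the tested genes of the set, the other laminin chains and the other laminin receptors. Red marks genes called higher, blue genes called lower and grey genes not called at an adjusted p of 0.05. LAMA4 at 2.07 and BCAM at 1.83 lie furthest to the right and LAMA1 at -1.16 furthest to the left.

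Of 24 other basement membrane components, 19 were tested, and 2 were called higher and 7 lower, beside 6.75% and 8.44% of all genes tested. The median log2 difference over the 19 was -0.47. The paired type IV collagen chains COL4A1 and COL4A2 were among those lower: COL4A1 was at 52.0 and 37.5 FPKM in DMSO and 17.4 and 15.7 in IWP2 (log2 difference -1.36 ± 0.17, SE, adjusted p = 0.00818), and COL4A2 at 51.1 and 36.6 against 21.5 and 18.7 FPKM (-1.07 ± 0.18, adjusted p = 0.0185). COL4A5 and COL4A6, at 18.1 to 18.4 and 11.4 to 15.7 FPKM in DMSO and 20.5 to 26.0 and 17.4 to 18.7 in IWP2, were not called (adjusted p = 0.187 and 0.174). The fibulins FBLN1 and FBLN2, which bind laminin and nidogen, differed by -0.61 ± 0.08 and -1.19 ± 0.09 (log2, SE; adjusted p = 0.0105 and 0.00232). NTN4, a netrin that binds laminin gamma chains, was at 5.15 and 9.09 FPKM in DMSO and 0.762 and 0.641 in IWP2 (log2 difference -2.21 ± 0.27, adjusted p = 0.00735). FREM1, a matrix protein of the Fraser complex, differed by -1.46 ± 0.17 (adjusted p = 0.00625) and SPARC, a collagen-binding matricellular protein, by -0.53 ± 0.08 (adjusted p = 0.0148).

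The 2 components called higher were heparan sulfate proteoglycans of the basement membrane. COL18A1 was at 62.4 and 53.0 FPKM in DMSO and 103 and 99.9 in IWP2 (log2 difference 0.81 ± 0.10, SE, adjusted p = 0.00899), and AGRN, which binds laminin directly, at 47.0 and 41.8 against 72.0 and 64.6 FPKM (0.61 ± 0.10, adjusted p = 0.0199). HSPG2 (perlecan), another such proteoglycan, was at 22.6 to 24.0 FPKM in all 4 samples (log2 difference 0.02 ± 0.09, adjusted p = 0.906). Without IWP2 replicate 1, FBLN2 was the only one of the 9 components still called (adjusted p = 0.0468), and likewise without IWP2 replicate 2 (0.0428), while SPARC was not called with any sample left out (0.0682 to 0.116). Without DMSO replicate 2, AGRN was also not called (0.0690).

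Of 21 partners and adaptors of laminin receptors, 19 were tested, and 3 were called higher and 4 lower, beside 6.75% and 8.44% of all genes tested. The median log2 difference over the 19 was 0.07. VCL, which couples adhesions to actin, was at 56.3 and 50.4 FPKM in DMSO and 126 and 122 in IWP2 (log2 difference 1.20 ± 0.09, SE, adjusted p = 0.00215). CD9, a tetraspanin, and BCAR1, an adhesion scaffold, differed by 0.89 ± 0.16 and 0.68 ± 0.09 (adjusted p = 0.0232 and 0.00944). SRC, a kinase of adhesions, was at 57.4 and 66.0 against 26.2 and 24.6 FPKM (log2 difference -1.25 ± 0.10, adjusted p = 0.00286). FERMT2, an integrin activator, and SGCB and SGCE, sarcoglycans of the dystroglycan complex, were also lower, with log2 differences of -0.42 ± 0.09, -0.74 ± 0.10 and -0.57 ± 0.10 (adjusted p = 0.0373, 0.0109 and 0.0197). CD151, the tetraspanin that binds ITGA3 and ITGA6 most tightly, was at 85.1 to 92.1 FPKM in all 4 samples (adjusted p = 0.658). VCL and SRC were called with any sample left out; without IWP2 replicate 1 or 2 no other adaptor was, and FERMT2 and SGCE were not called in any such fit (adjusted p from 0.0678 to 0.204). Without DMSO replicate 1 SGCB (0.0533), and without DMSO replicate 2 CD9 (0.0538), were not called.

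**Figure D4:**
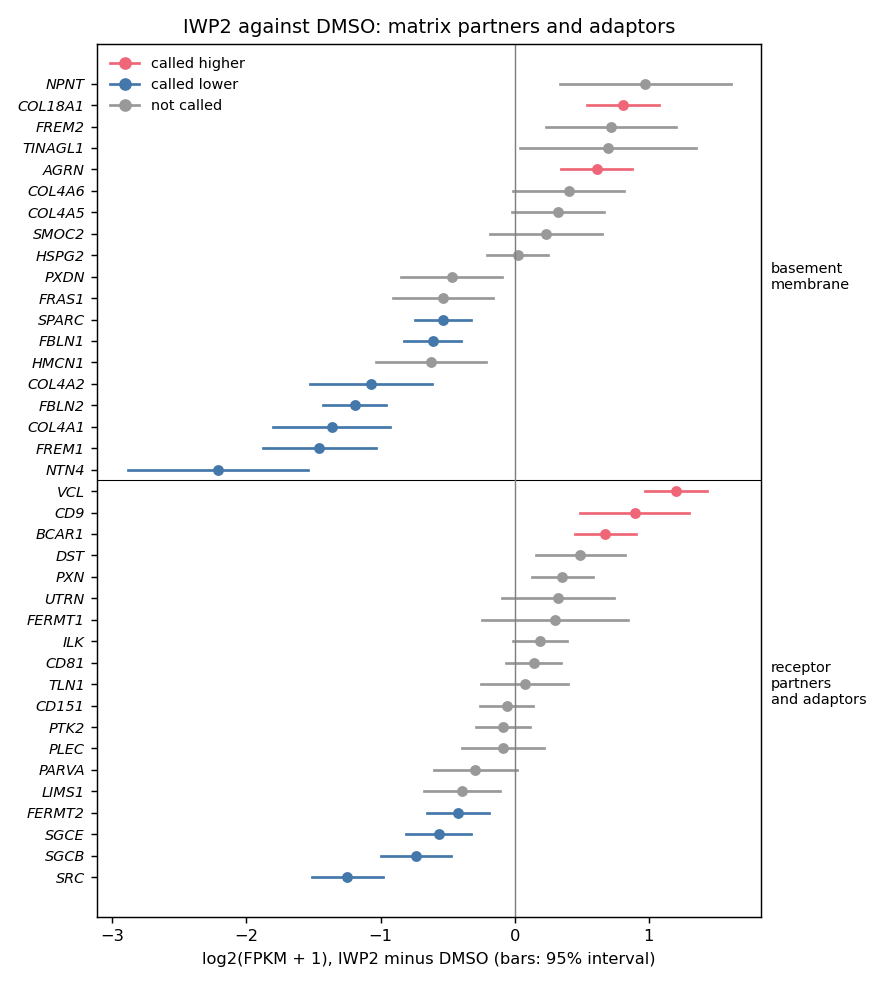
Log2 difference in FPKM + 1, IWP2 minus DMSO, with 95% intervals from limma, for the tested basement membrane components and receptor partners. Colours are as for the laminin genes. COL4A1 and COL4A2 lie at -1.36 and -1.07 and COL18A1 and AGRN at 0.81 and 0.61, on opposite sides of 0.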

How the data were processed

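Per the labels, total RNA from 2 DMSO and 2 IWP2 samples of H1 cells was made into Illumina TruSeq libraries. The authors deposited FPKM per gene, without counts. The submitters' processing notes name BWA, Bowtie, RSEM and hg19, whereas 56597 of 58192 gene IDs matched in GENCODE 29 had its GRCh38 start and end. The kit is not stated to mark strand, so reads of overlapping genes cannot be told apart. DMSO columns, headed as minus IWP2, were numbered by their header. The most common ratio of low values put the depth of the other libraries at 0.89, 1.1 and 0.95 of that of DMSO 1, and the absolute depth is unknown, so counting error is not given. FPKM summed to 616418 to 653850 per sample, and 13831 to 13926 genes had at least 1 FPKM.

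Genes with a mean of at least 1 FPKM entered limma 3.58.1 (R 4.3.3) with a mean-variance trend on log2(FPKM + 1), a scale that understates changes of low genes. The SE and 95% intervals of log2 differences are from limma. Shares were compared by the exact permutation test (scipy 1.17.1). The fit was tested on simulated data with independent noise, which checks the code and not the calls made here. All 10 genes and each called gene of the laminin, receptor, basement membrane and adaptor lists were named; uncalled genes, Wnt targets and markers were named in part, after their values were seen. Nearest profiles were the 3 tested genes closest to LAMC1. The members and lists were chosen with earlier results of these data known. Alternatives were other pseudocounts, filters and scalings, no trend, a replicate block and leaving out each sample. A gene was left out of the lists and is not reported here.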

Additional observations from a re-analysis of the deposited data

How the results depend on the processing

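Counts are given against 946 genes called higher and 1183 lower, of which 2 and 2 were of the set, 7 and 7 were other laminin chains, receptors or basement membrane components, and 3 and 4 were adaptors. With no filter, 28445 genes were tested and 315 were called higher and 541 lower. These included 1 and 1 of the set, 3 and 3 of the other basement membrane genes, and 2 and 2 of the adaptors. Median centring called 5 adaptors higher. Leaving out each sample in turn gave 91 to 656 genes higher and 227 to 810 lower, 0 to 2 of the set higher and 0 to 1 lower, 1 to 7 other basement membrane genes higher and 1 to 6 lower, and 1 to 4 adaptors higher and 1 to 2 lower. The lowest counts of all genes were those without IWP2 replicate 1, and such fits assume that the lone sample varies like the other group. With only the chains of the set in the denominator, the LAMA5 share differed by 26.6 points rather than 23.2. The cause of these changes was not tested, except that fewer samples or more genes tested enter by construction.

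With the replicate number as a block, 862 genes were called higher and 1065 lower, and of the set 2 and 2. The samples share only a number: deviations of same-numbered samples from their group means correlated at 0.15 over 14022 genes.

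Of the log2 differences of the 9 genes under the alternatives, 101 kept their direction and side of the threshold. Another 12 lost the call and 2 gained it, and none changed sign. The 101 include genes not called that stayed so, and the 12 losses all fell on LAMA1, LAMA5, LAMB1 and ITGA3. The lost calls included LAMA1 and ITGA3 with no filter (adjusted p = 0.0728 and 0.127, limma). Depth is unknown, so counting error could not be separated from the spread between samples.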
